A study of Mus musculus with 8 samples.

Results

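A list of 35 genes of macrophages and dendritic cells was examined in mouse CD3 T cells before and during antibody stimulation. The list was drawn up with these arrays in view, since its genes read lower on the arrays of antibody-treated cells than in naive cells, so those falls describe how the genes were chosen and are given with no test. A gene was taken from a probe set (the group of probes that reads a transcript) listed with a single gene symbol, and 34 of the 35 genes had one, among 22180 genes measured in that way. The remaining gene, Trf (transferrin), lies on a probe set shared with Srprb and is left out of the counts.

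Naive CD3+ T cells of C57BL/6J mice were purified from spleens and lymph nodes by negative selection, in which other cells are pulled out with magnetic beads. Their RNA was hybridised to 8 Affymetrix Mouse Gene ST 2.0 arrays, 1 per condition. Antibodies to CD3 and CD28 were immobilized on the plate (iAb), or given in solution with latrunculin A (sAb+LatA) or without it (sAb). Latrunculin A is a toxin that binds actin monomers. In the general protocol of the methods, soluble antibody was followed by a secondary antibody, anti-hamster IgG. Each stimulus had an array at 3 h and at 24 h. The other 2 arrays held T cells with latrunculin A and no antibody (LatA) and steady-state cells (naive). For the 24 h arrays the cells were washed after 3 h and cultured on, and the LatA array is labelled as a control while the methods give 3 h. Mice were in general sex-matched and 8 weeks old, and the number of mice behind an array, or whether they were pooled, is not given in the sources used here.

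Macrophages of the spleen clear old red cells, apoptotic cells and particles from the blood. Those of the red pulp depend on the growth factor receptor CSF1R and on the transcription factors PU.1 (Spi1) and SpiC (Spic), and they break down haem with haem oxygenase (Hmox1) and pass its iron out through ferroportin (Slc40a1). Tissue macrophages are also a main source of C1q, the first component of the classical complement pathway. T cells are not known for making C1q or CSF1R. In a bulk sample, fewer cells of a type and less RNA per cell cannot be told apart.

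The label of the list was checked against markers. The T cell genes Cd3e and Cd4 read high on all 8 arrays, at 11.7 to 12.1 and 10.6 to 11.3 on the log2 scale. Macrophage genes were measurable beside them. The 1447 genes of smell, taste and pheromone receptors, which T cells should hardly make, gave a background per array, the level under which 95% of them lay (log2 4.70 to 4.99), and 31 of the 34 genes lay above it in naive cells. The scavenger receptor genes Siglec1 and Msr1 and the integrin gene Itgam did not exceed background on any array. Of the genes that define dendritic cells, Flt3, the receptor of their growth factor, read 4.56 in naive cells, and Zbtb46, their lineage factor, read 4.86, both below background there. Of the 22 dendritic cell genes measured beside the list, 12 were above background in naive cells and 6 never passed it. Among all 22180 genes measured, 11547 were above background in naive cells. The count of 12 of 22 lies close to that share and says little about dendritic cells. The highest of the 12 were Ccr7 at 11.90 and Cd8a at 9.82, which T cells also make. Next came Cd209a (DC-SIGN) at 9.67, Bst2 at 8.90 and Ppt1 at 8.46. The dendritic cell markers were thus mixed, and the genes are described below as macrophage genes.

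The complement genes illustrate the pattern and lie side by side in the genome. C1qb, C1qc and C1qa, which encode the chains of C1q, are consecutive protein-coding genes on mouse chromosome 4. The bases just upstream of the RefSeq starts of C1qb and C1qc (GRCm38.p6, 250 bases each, read 5′ to 3′ on the genes' own strand) are shown because these 2 neighbours read lower together, with that of Adgre4 for a macrophage gene elsewhere. Capitals mark a match to a searched motif.
C1qb, chr4:136886201-136886450, minus strand: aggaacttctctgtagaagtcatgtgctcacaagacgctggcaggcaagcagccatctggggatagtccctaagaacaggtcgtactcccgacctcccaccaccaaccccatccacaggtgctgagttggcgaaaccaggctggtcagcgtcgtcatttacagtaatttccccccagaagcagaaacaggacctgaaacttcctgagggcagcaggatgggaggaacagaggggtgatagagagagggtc
C1qc, chr4:136892915-136893164, minus strand: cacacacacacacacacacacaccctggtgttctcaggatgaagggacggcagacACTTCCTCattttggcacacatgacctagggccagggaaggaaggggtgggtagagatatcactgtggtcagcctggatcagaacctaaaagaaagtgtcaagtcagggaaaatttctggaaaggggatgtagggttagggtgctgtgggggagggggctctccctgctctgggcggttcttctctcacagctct
Adgre4, chr17:55749734-55749983, plus strand: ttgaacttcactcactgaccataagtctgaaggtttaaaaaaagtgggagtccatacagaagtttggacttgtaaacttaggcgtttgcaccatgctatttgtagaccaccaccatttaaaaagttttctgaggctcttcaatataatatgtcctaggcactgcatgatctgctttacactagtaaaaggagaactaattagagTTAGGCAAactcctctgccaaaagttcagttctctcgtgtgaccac
The PU.1 motif GAGGAAGT, searched on both strands, matched C1qc, as ACTTCCTC on the opposite strand, and no other of the 22 genes of the list found in the promoter table. Of all 32851 promoter windows of this length, 2.44% held it. The C/EBP motif TTGCNNAA matched Adgre4, Cd68 and Fcgr3, against 9.56% of all windows. The composite of PU.1 and IRF factors (GGAA and GAAA with 2 bases of any kind between them) matched Clec7a (2.3% of windows), and the MARE element of MAF and BACH factors (TGCTGA and TCA with any base between them) matched 0 of the 22 genes (0.353% of windows). The composite shares the letters GGAA with the PU.1 motif, and a match describes the letters only.

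Hmox1, the haem-degrading enzyme, and Slc40a1, the iron exporter, stood lowest relative to naive cells. Hmox1 read log2 9.17 with LatA and 9.52 in naive cells, then 7.21 with iAb, 7.20 with sAb+LatA and 7.58 with sAb at 3 h, and 4.20, 4.08 and 4.82 with the same stimuli at 24 h. Every antibody array lay below both arrays without antibody, and all 24 h arrays lay below all 3 h arrays. The mean of the antibody arrays was 4.56-fold below naive at 3 h and at least 26.8-fold below at 24 h, a lower bound because only the sAb array of 24 h was above background. Slc40a1 read 7.99 with LatA and 7.97 in naive cells, then 5.21, 5.27 and 5.51 with iAb, sAb+LatA and sAb at 3 h, and 3.65, 3.73 and 4.46 at 24 h. With LatA alone it was level with naive cells, and with antibody it was 6.24-fold lower at 3 h and at least 9.31-fold lower at 24 h, when no array was above background. Cd163, the scavenger receptor that takes up haemoglobin, read 5.18 with LatA and 5.48 in naive cells, and between 4.31 and 4.82 on the antibody arrays.

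All 3 C1q genes were lower on each antibody array. C1qb read 8.70 with LatA and 8.94 in naive cells, then 7.31, 7.14 and 7.59 with iAb, sAb+LatA and sAb at 3 h, and 4.67, 5.42 and 4.95 at 24 h. That is 3.02-fold below naive at 3 h and at least 15.0-fold below at 24 h. C1qa read 6.74 with LatA and 7.25 in naive cells, 6.22, 5.98 and 6.19 at 3 h, and 5.25, 5.70 and 5.42 at 24 h in the same order of stimuli, and stayed above background throughout. C1qc read 6.23 with LatA and 6.40 in naive cells, 5.45, 5.52 and 5.47 at 3 h, and 4.88, 4.57 and 5.08 at 24 h. The 3 subunits thus shared the direction while differing in size, with C1qa 3.46-fold and C1qc at least 2.81-fold below naive at 24 h.

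Csf1r, the receptor for the macrophage growth factors CSF1 and IL-34, read 7.78 with LatA and 7.66 in naive cells, then 6.39, 6.50 and 6.66 with iAb, sAb+LatA and sAb at 3 h, and 4.44, 5.23 and 4.54 at 24 h. Only the sAb+LatA array remained above background at 24 h. Spic, the factor that red pulp macrophages require, read 6.70 with LatA and 6.95 in naive cells, 5.87, 5.56 and 5.65 at 3 h, and 4.31, 4.18 and 4.21 at 24 h, below background on all 3. The 24 h arrays were at least 4.59-fold below naive for Spic and at least 6.77-fold for Csf1r. Spi1, which encodes PU.1 and is shared with B cells and granulocytes, was 1.51-fold below naive at 3 h and 2.02-fold at 24 h.

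**Figure D1:**
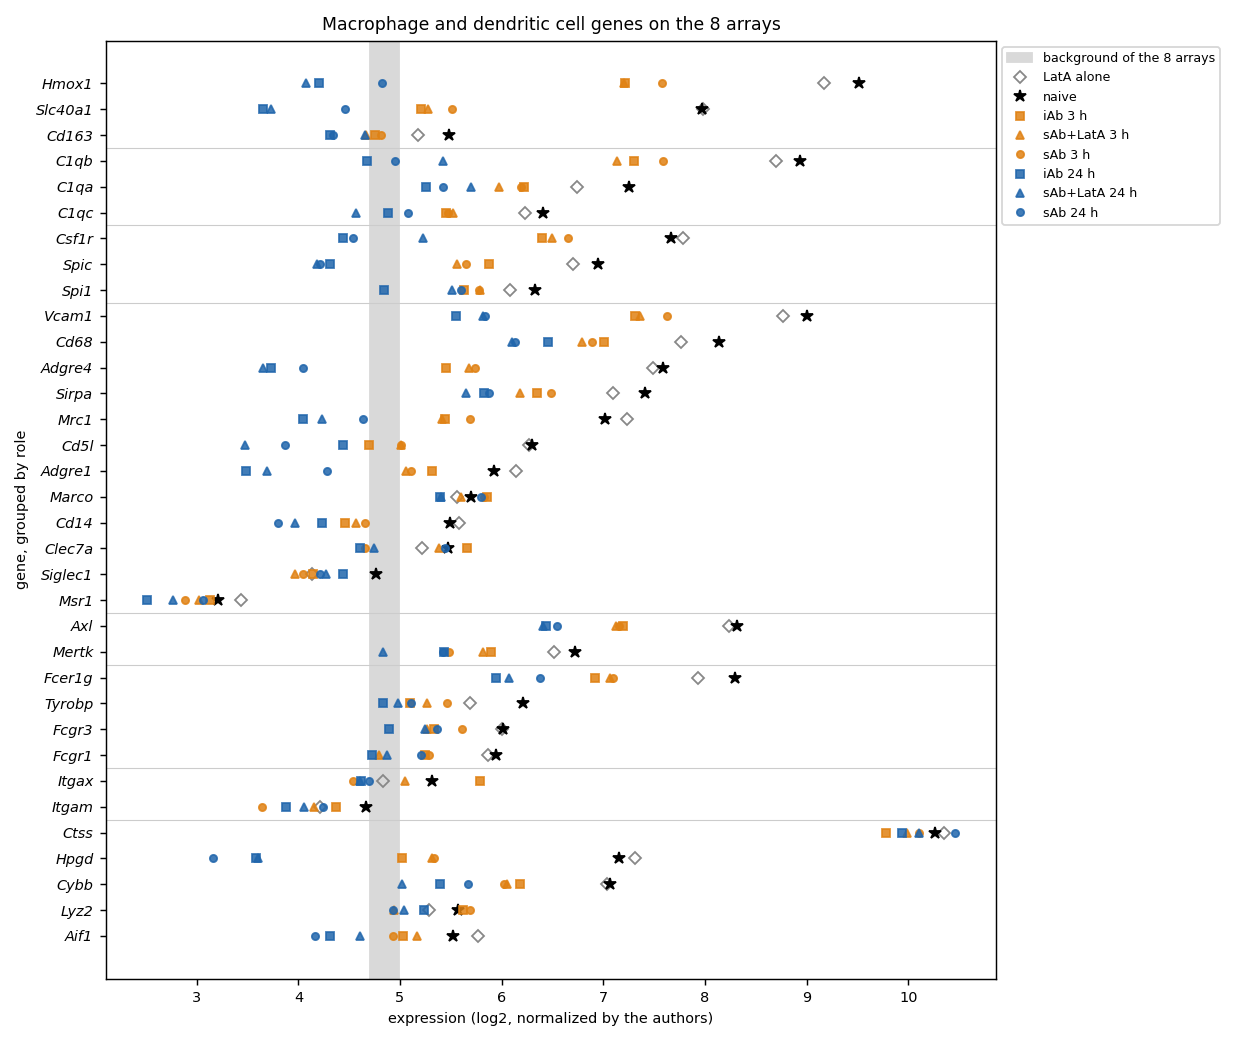
Expression (log2, horizontal axis) of the 34 genes, grouped by role (vertical axis), with 1 point per array and the range of the background of the 8 arrays in grey. Most genes run in order of time, with the LatA and naive arrays highest and the 24 h arrays lowest (Hmox1 9.17 and 9.52, then 7.20 to 7.58, then 4.08 to 4.82). All 24 h points lie below all 3 h points for 23 of the 34 genes, and Ctss and Marco are among the others.

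Surface receptors made up the largest group. Vcam1, an adhesion molecule of red pulp macrophages and endothelium, read 8.77 with LatA and 9.0 in naive cells, 7.32, 7.36 and 7.63 at 3 h, and 5.55, 5.82 and 5.83 at 24 h with iAb, sAb+LatA and sAb. It was 9.63-fold below naive at 24 h with all 3 arrays above background. Adgre4, an adhesion G protein-coupled receptor of macrophages, read 7.49 with LatA and 7.59 in naive cells, 5.45, 5.68 and 5.74 at 3 h, and 3.73, 3.65 and 4.05 at 24 h. Its better known relative Adgre1 (F4/80) read 6.14 with LatA and 5.92 in naive cells, 5.31, 5.06 and 5.11 at 3 h, and 3.48, 3.69 and 4.28 at 24 h. Both were below background on the 24 h arrays, Adgre4 at least 7.13-fold and Adgre1 at least 2.25-fold under naive. Mrc1 (the mannose receptor) and Cd5l (a protein secreted by macrophages that binds lipids) had the same course, Mrc1 at least 4.82-fold and Cd5l at least 2.92-fold below naive at 24 h. Cd68, a glycoprotein of macrophage lysosomes, was 3.75-fold below and Sirpa, the receptor for CD47, was 3.08-fold below, and these stayed above background on all 8 arrays. Cd14, a co-receptor for lipopolysaccharide, read 5.58 with LatA and 5.49 in naive cells and no higher than 4.65 on an antibody array.

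The receptor kinases Axl and Mertk, which bind apoptotic cells through bridging proteins, were lower on all antibody arrays. Axl read 8.23 with LatA and 8.31 in naive cells, 7.19, 7.13 and 7.15 with iAb, sAb+LatA and sAb at 3 h, and 6.44, 6.41 and 6.54 at 24 h. The 3 stimuli thus gave nearly the same reading at each time. Axl was 2.23-fold below naive at 3 h and 3.60-fold at 24 h, and Mertk was 1.98-fold below at 3 h and 2.82-fold at 24 h. Among the genes of Fc receptor signalling, Fcer1g (the common gamma chain) read 7.93 with LatA and 8.30 in naive cells, 6.92, 7.07 and 7.09 at 3 h, and 5.95, 6.07 and 6.38 at 24 h. The adaptor Tyrobp (DAP12) was 1.92-fold below naive at 3 h and 2.36-fold at 24 h. The high-affinity IgG receptor Fcgr1 was 1.79-fold and 2.02-fold below.

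The remaining enzymes and cytosolic genes split. Hpgd, the prostaglandin-degrading dehydrogenase, read 7.31 with LatA and 7.15 in naive cells, 5.01, 5.32 and 5.34 at 3 h, and 3.58, 3.60 and 3.16 at 24 h, at least 5.28-fold below naive by then. Cybb, the catalytic chain of the phagocyte NADPH oxidase, was 1.97-fold below at 3 h and 3.25-fold at 24 h. Ctss (cathepsin S), which also trims the invariant chain in B cells and dendritic cells, lay between 9.78 and 10.46 on the 8 arrays, with the sAb array of 24 h highest and above naive (10.26). Lyz2 (lysozyme) and Marco, a scavenger receptor of marginal zone macrophages, also had antibody arrays on both sides of naive. Lyz2 read 5.62 and 5.69 with iAb and sAb at 3 h, against 5.57 in naive cells, and Marco read 5.85 and 5.82 on those arrays, against 5.70. Itgax (CD11c), a gene of dendritic cells and activated T cells, read 5.78 with iAb at 3 h, above naive at 5.32 and LatA at 4.83.

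**Figure D2:**
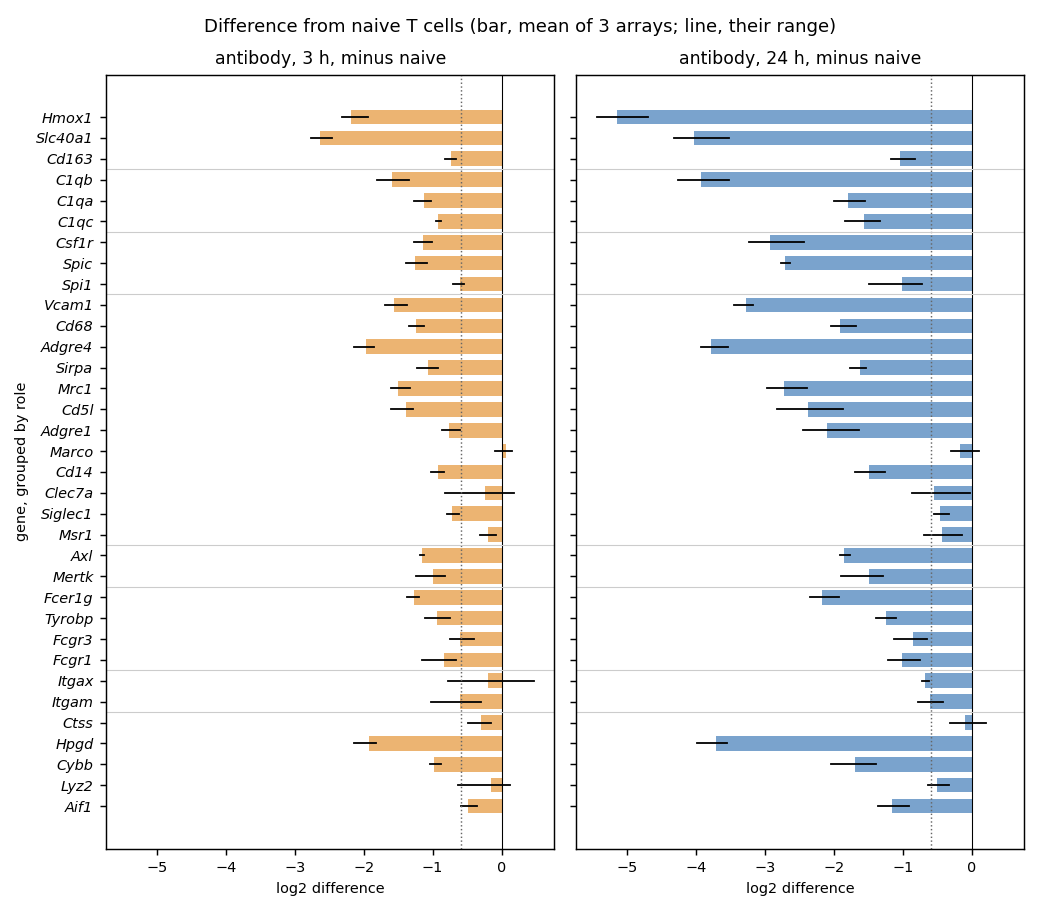
Difference from naive cells (log2) for each of the 34 genes at 3 h (left) and 24 h (right), where the bar is the mean of the 3 antibody arrays and the line their range, with a dotted line at 1.5-fold. Slc40a1 (-2.64) and Hmox1 (-2.19) lie furthest to the left at 3 h, Hmox1 (-5.15), Slc40a1 (-4.03) and C1qb (-3.92) at 24 h, and Marco (0.06 and -0.17) and Ctss (-0.30 and -0.09) beside 0.

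Counts over the list were as follows, for genes that passed background on 1 or both arrays of a comparison, with calls at 1.5-fold. LatA alone against naive called 0 of the 31 genes tested lower and 0 higher, when 1.14% of all genes tested were lower and 0.918% higher. The list's median difference was -0.19, when that over all genes tested was 0.02. Counted without the filter, 25 of 34 genes lay below naive, and the share of all genes doing so was not taken. The lowest was Siglec1 at -0.63, which was under background on both arrays. At 3 h, 25 genes were lower with iAb (12.6% of all genes), 25 with sAb+LatA (8.78%) and 26 with sAb (3.54%). By 24 h, 28 were lower with each stimulus, against 12.9% of all genes with iAb, 11.8% with sAb+LatA and 8.83% with sAb. No gene of the list was 1.5-fold higher after the background filter, when 15% of all genes were higher with iAb, 10.4% with sAb+LatA and 6.18% with sAb at 3 h, and 21.2%, 19.6% and 17.2% at 24 h. Median differences over the 34 genes were -0.99, -0.98 and -0.97 with iAb, sAb+LatA and sAb at 3 h and -1.55, -1.80 and -1.46 at 24 h, when those over all genes tested lay between -0.04 and 0.03. Since the choice of the genes used these differences, the shares are printed beside each other only as a description.

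Lower readings by 1.5-fold on all 6 antibody arrays were found for 23 of the 34 genes, and for 1.86% of the genes above background in naive cells. The genes nearest that limit were Adgre1, Fcgr1 and Cd163 inside it, with a least difference over the 6 arrays of -0.61, -0.66 and -0.67, and Spi1, Fcgr3 and Aif1 outside it, with -0.55, -0.40 and -0.36. All 6 antibody arrays lay below both the LatA and naive arrays for 27 of 34 genes, 26 of them above background in naive cells (17.4% of all such genes). Ranked by the least difference among 10499 named genes above background in naive cells, Slc40a1 came first, Hmox1 was at 3, Adgre4 at 4 and Hpgd at 5, and 19 of the first 100 genes were on the list. The 10 other genes nearest the top by this measure, over the same 6 arrays, were Rab6b, Tcp11l2, Ccr3, Fosb, Neil1, Eif2ak3, Gfra2, Arrdc3, Ankrd50 and Dgat1, with least differences of -2.01 for Rab6b to -1.36 for Dgat1. Trf read 8.62 with LatA and 8.61 in naive cells on the probe set it shares with Srprb, 7.75, 7.68 and 7.99 with iAb, sAb+LatA and sAb at 3 h, and 6.19, 5.78 and 6.12 at 24 h.

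The difference between the times of stimulation did not itself enter the rule, but the readings of the 6 antibody arrays against naive cells did. The genes were also listed with earlier results of these data known. The calls between the times therefore describe the chosen genes and are no independent test of them. An additive fit of stimulus and time was made with limma over the 6 antibody arrays, which assumes that a stimulus has the same effect at both times. Of the 30 genes of the list that passed background on any of those arrays, 19 fell at 24 h relative to 3 h at a Benjamini-Hochberg adjusted p under 0.05 and 0 rose, when 7.3% of the 13288 genes fitted fell and 13.2% rose. Without the sAb+LatA arrays 12 fell, and with the arrays centred on their medians 20 fell, when the split over all genes turned to 1660 that fell and 1191 that rose, in place of 970 and 1749. Of the 19 genes, 8 (Adgre1, Adgre4, Aif1, Cd5l, Hpgd, Mrc1, Slc40a1 and Spic) were above background on no 24 h array, so they entered through the 3 h arrays, where they were higher. Among the 15 genes above background on all 6 antibody arrays, 7 fell (Axl, C1qa, Cd68, Cybb, Fcer1g, Sirpa and Vcam1) and 0 rose, against 7.95% and 14.1% of all such genes. At an unadjusted p under 0.05, 22 were lower and 0 higher, against 13.2% and 20.8% of all genes. Within a stimulus, at 1.5-fold between its 24 h and 3 h arrays, 18 genes were lower and 0 higher with iAb (9.48% and 16.1% of all genes), 18 and 0 with sAb+LatA (7.38% and 13.1%) and 18 and 1 with sAb (5.61% and 9.45%), the higher 1 being Clec7a. The median over the list within a stimulus was -0.74 with iAb, -0.67 with sAb+LatA and -0.66 with sAb, while the medians over all genes were 0.03, 0.08 and 0.02.

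Hmox1 fell furthest, by 2.96 ± 0.13 on the log2 scale (SE, 6 arrays, limma adjusted p = 0.000607). C1qb fell by 2.33 ± 0.20 (limma adjusted p = 0.00162), Adgre4 by 1.81 and Csf1r by 1.78 ± 0.18 (limma adjusted p = 0.00248). Hpgd, Vcam1, Spic, Slc40a1, Adgre1 and Mrc1 fell by 1.21 to 1.77. All of these read lower at 24 h than at 3 h. Adgre4, Hpgd, Spic, Slc40a1, Adgre1 and Mrc1 were above background on no 24 h array and entered the fit through the 3 h arrays. Cd5l, Fcer1g, Cybb, Axl, Aif1 (an actin-binding protein of macrophages), C1qa, Cd68, C1qc and Sirpa fell by 0.56 to 0.98. Genes whose further difference did not pass were, among others, Mertk (-0.50, limma adjusted p = 0.113), Spi1 (-0.41, adjusted p = 0.111) and Tyrobp (-0.30, adjusted p = 0.110). Ctss was the single gene of the 30 tested with an estimate above 0 (0.21, limma adjusted p = 0.258). Where 24 h readings were under background, the estimate is bounded by what the probes can show. Of the 30 genes, 22 had all 3 arrays of 24 h below all 3 of 3 h, against 15.1% of all genes fitted.

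**Figure D3:**
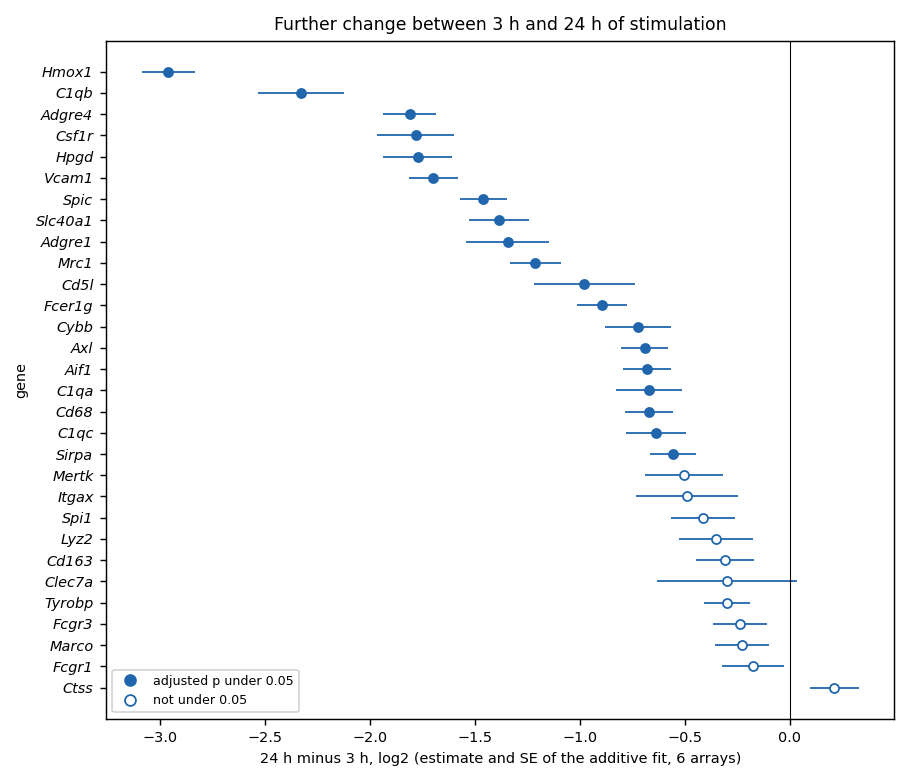
Change at 24 h relative to 3 h (log2, estimate with its standard error from the additive limma fit of 6 arrays) for the 30 genes tested, with filled points for an adjusted p under 0.05. The 19 filled points run from -2.96 for Hmox1 to -0.56 for Sirpa, and Ctss is the point right of 0.

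**Figure D4:**
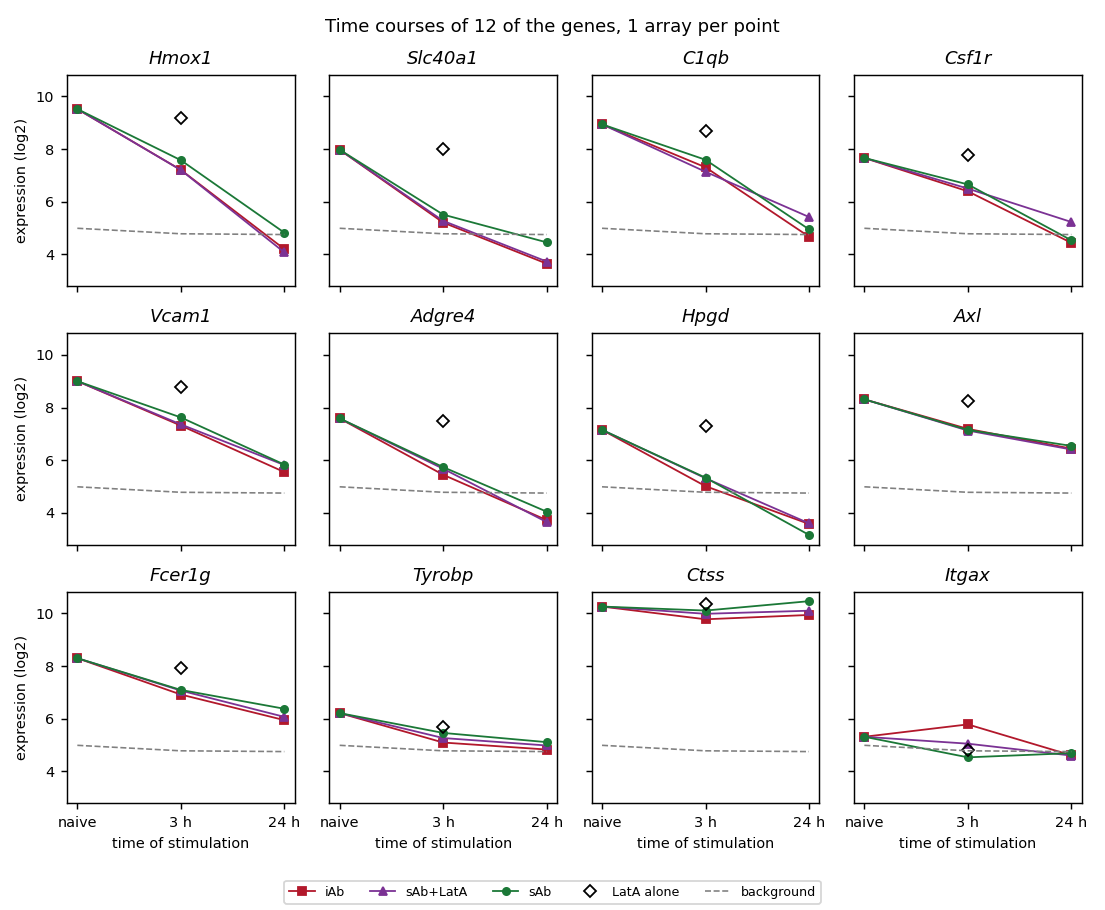
Expression (log2) of 12 of the genes in naive cells and after 3 h and 24 h with iAb, sAb+LatA or sAb, 1 array per point, with LatA alone drawn at the 3 h that the methods give and background dashed. The 3 lines run close together for Axl (6.41 to 6.54 at 24 h), those of Hmox1 and Slc40a1 reach background, Ctss stays near 10, and Itgax separates at 3 h with iAb highest at 5.78.

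The stimuli were compared next, since the study set immobilized against soluble antibody and asked what blocking actin does. In the additive fit, 0 of the 30 genes passed for iAb against sAb (limma, smallest adjusted p 0.259 for Hmox1, -0.50 ± 0.15, SE), and likewise 0 of all 13288 genes. Without adjustment 5 genes of the list were lower and 0 higher at p under 0.05, against 7.83% and 8.09% of all genes. For sAb+LatA against sAb, 0 of 30 and 0 of all genes passed, with 2 lower and 1 higher unadjusted, against 3.42% and 2.11%. The fit has 2 residual degrees of freedom, so these counts do not show that the stimuli act alike.

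Single genes differed between pairs of arrays. With iAb against sAb at 3 h, Itgax read 5.78 against 4.53 and Clec7a (Dectin-1, a receptor for beta-glucan) 5.66 against 4.65, the 2 genes called higher, while 0 were lower (8.64% of all genes higher and 10.2% lower). At 24 h, 3 genes were lower with iAb than with sAb and 0 higher (2.59% lower and 3.21% higher among all genes), namely Hmox1 at 4.20 against 4.82, Spi1 at 4.84 against 5.60 and Clec7a at 4.61 against 5.45. With sAb+LatA against sAb, Clec7a was higher at 3 h (5.39 against 4.65) and Lyz2 lower (4.94 against 5.69), when 2.45% of all genes were higher and 3.39% lower. At 24 h, Csf1r was higher with sAb+LatA (5.23 against 4.54), and Hmox1, Cybb, Mertk and Clec7a were lower by 0.59 to 0.75 (1.82% and 1.94% of all genes). The genes tested were 30 in each comparison at 3 h, and at 24 h 19 with iAb and 20 with sAb+LatA. Medians over the 34 genes were -0.06 at 3 h and -0.28 at 24 h for iAb relative to sAb. With values below background raised to it, the 24 h median for iAb was -0.03. For sAb+LatA relative to sAb the medians were -0.09 and -0.16. Those over all genes tested lay between -0.04 and 0.02. Counted without the background filter at 24 h, 25 of the 34 genes read below sAb with iAb, and 25 with sAb+LatA. These counts include genes under background on both arrays, and the share of all genes reading below was not taken.

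Other genes of macrophages are given for comparison. Of 63 further macrophage genes measured, 49 were above background on some array. Among the 48 above background in naive cells, 12 were 1.5-fold lower on all 6 antibody arrays, against 1.86% of all such genes. Counted without that filter, 1 of the 63 was higher on all 6, and the share of all genes doing so was not taken. The lower genes were Mpeg1 (perforin-2), Clec4n and Clec12a (C-type lectins), Ccr3, the cholesterol exporter Abca1, the lysosomal proteases Lgmn, Ctsb and Ctsh, the metal transporter Slc11a1, the complement regulator Cfp (properdin), Treml4 and Pld4. Mpeg1 read 7.35 with LatA and 7.58 in naive cells, and between 6.20 and 6.64 at 3 h and between 5.29 and 5.41 at 24 h. The higher gene was Irf8, a factor of myeloid cells that activated T cells also make, at 8.08 to 10.33 on the antibody arrays, against 5.90 in naive cells. In the additive fit of time, 14 of 48 fell and 8 rose (limma, adjusted p under 0.05), against 7.3% and 13.2% of all genes. Among those that rose were the lysosomal enzymes Acp5, Ifi30 and Ctsd and the NADPH oxidase chains Cyba, Ncf1 and Ncf4, partners of Cybb, which fell.

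Levels were also summed on the linear scale over each list. The sum over the 34 genes was 46.2% of naive with iAb, 46.7% with sAb+LatA and 51.4% with sAb at 3 h, and 31.3%, 33.6% and 40.3% at 24 h, when LatA alone stood at 91.7%. Ctss made up 49.4% to 55.0% of the sum on the 24 h arrays, and without it the 24 h values were 19.6%, 20.2% and 22.5%. Other macrophage genes kept 71.3% to 79.6% over the 6 antibody arrays. Fth1 at 12.09 and Ctsb at 10.85 were the highest of them in naive cells, and no sum without them was taken. The median log2 difference of these genes from naive lay between -0.52 and -0.37 on the antibody arrays. Dendritic cell genes kept 82.7% or more, but Ccr7 and Cd8a, which T cells make, gave 56.2% to 61.1% of the sum on the antibody arrays. The other 20 genes stood at 107% to 125% of naive. Bst2 weighs on that sum, at 8.90 in naive cells and 10.02 to 10.20 at 24 h, and the sum without it was not taken. By array at 24 h, 2 to 4 dendritic cell genes were 1.5-fold higher than naive and 2 to 4 lower. Ccr7 was the only 1 of 22 lower on all 6. Zbtb46 read between 4.51 and 4.91 on the antibody arrays, against 4.86 in naive cells. Neutrophil genes stood at 79.6% to 98.1%, with S100a8, S100a9 and Ly6g never above background, B cell genes at 101% to 144%, and genes of MHC class II presentation, which macrophages, dendritic cells and B cells share, at 80.8% to 121%. T cell genes stood at 102% to 117%. Monocyte genes stood at 86.2% to 149%, NK cell genes at 93.5% to 132%, and genes of erythroid cells and platelets at 67.8% to 92.3%. Those of basophils and mast cells stood at 72.0% to 101%, with 1 of 9 above background on any array. Stroma and endothelium genes stood at 63.4% to 111%. Single strong genes weigh on these sums too, which were not recomputed without them. Among monocyte genes Ly6c2 read 9.77 in naive cells and 8.88 to 10.80 on the antibody arrays. Pecam1, of the stroma and endothelium list, read 9.70 in naive cells and 8.72 to 9.93. In the B cell list Pou2af1 read 6.72 in naive cells and 6.53 to 8.84. The part of cell make-up in the readings of the list was not tested.

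**Figure D5:**
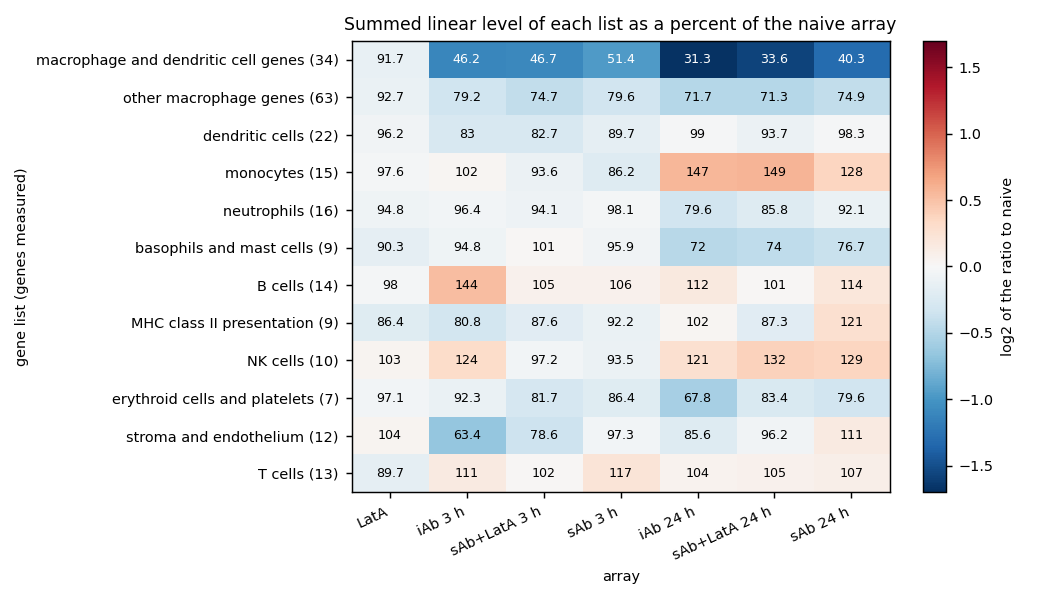
Summed linear level of each gene list (rows, with the number of genes measured) on each array (columns) as a percent of the naive array, coloured by the log2 of that ratio. The list of 34 genes is the darkest row, at 31.3% to 51.4% on the antibody arrays and 91.7% with LatA alone, while T cell genes stand at 102% to 117% on the antibody arrays.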

How the data were processed

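Total RNA was labelled with biotin and hybridised by the authors to the 8 arrays, which they normalized together by RMA, which corrects background, equalises the distributions of probes and summarises each probe set. The deposited table gives a log2 value for each probe set on each array. The log2 scale is not stated and was read from the values, whose range was 1.20 to 14.3 and whose medians were 4.74 to 4.94. Of 41345 probe sets, 23521 have 1 symbol, 1820 several and 16004 none in the platform table, and for genes with several probe sets (1082, none on the list) the highest mean was used. No 2 arrays were identical (0 pairs). Differences of log2 values were taken with pandas 2.3.3 (Python 3.11.15) and the additive model was fitted with limma 3.58.1 (R 4.3.3) after a check on simulated data. Signal over background stands in place of depth. With 1 array per condition, the number of arrays limits precision. The p-values set the time or stimulus term against departures from additivity among 6 arrays, as moderated by limma. Their error holds no variation between replicates. The genes and the 11 other lists were chosen with earlier results of these data known. The text names all listed genes, for each other list the 2 genes furthest from naive among those above background in naive cells, and the 10 other genes with the largest least fall, and further genes of those lists named in the text were chosen after their values were seen. Alternatives were no background filter, a 99th percentile background, 2-fold, median centring, quantile normalization again and mean probe sets. Further ones were an intensity trend, time alone and leaving out the sAb+LatA arrays. Chosen after seeing the data were leaving out the sAb or the iAb arrays and values below background raised to it. So were the sums of the listed genes and of the dendritic cell genes without their strongest genes. Motifs were searched on RefSeq promoters of GRCm38.p6. There, 12 of the 34 counted genes and also Trf have no entry, so they were not searched.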

Additional observations from a re-analysis of the deposited data

Results flagged for a closer look

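Clec7a was the gene of the list whose differences turned direction between arrays at 1.5-fold. With iAb against sAb it stood at 1.01 (log2) at 3 h and at -0.84 at 24 h, and with sAb+LatA against sAb at 0.73 at 3 h and at -0.7 at 24 h. At 24 h relative to 3 h it stood at 0.79 with sAb, against -0.64 with sAb+LatA and -1.05 with iAb. All of these share the 2 sAb arrays, where Clec7a read 5.45 at 24 h and 4.65 at 3 h, the second below the background of that array (4.80). With 1 array per condition the difference between these differences was not tested.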

How the results depend on the processing

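Of 213 values recomputed under alternatives for 32 results, 195 stayed within 1.5 times a count or within 0.317 of a median (log2, the spread of the receptor genes between the LatA and naive arrays), and 18 counts moved. No median past 1.5-fold changed sign, and 2 smaller ones did, as given next. The counts of genes lower than naive ranged over 16 to 28 (sAb, 3 h), 17 to 26 (sAb+LatA and iAb, 3 h) and 20 to 30 (24 h), the largest move being 16 in place of 26 for sAb at 3 h at 2-fold. LatA alone called 1 gene lower without the filter and 2 after quantile normalization. Counts between stimuli were unstable: for iAb against sAb at 24 h, 6 genes were lower without the filter and 0 at the 99th percentile or at 2-fold, and 0 were higher at 3 h at the 99th percentile. For sAb+LatA against sAb, the lower and the higher counts at both times were 0 at the 99th percentile and at 2-fold, the higher count at 3 h was 2 after quantile normalization, and the higher count at 24 h was 0 with values raised to background. The median of iAb against sAb ranged over -0.06 to 0.04 at 3 h and over -0.31 to -0.03 at 24 h, and that of sAb+LatA against sAb at 24 h over -0.16 to 0.03. Without the sAb+LatA arrays, 12 genes in place of 19 fell at 24 h relative to 3 h (19 without sAb and 18 without iAb, chosen after seeing the data), and over all genes 287 fell and 587 rose, in place of 970 and 1749. Median centring changed that split to 1660 that fell and 1191 that rose, while 20 genes of the list fell. Centring shifted the arrays by -0.11 (naive) to 0.13 (iAb, 24 h). No paired analysis was possible because the labels number no replicates and each condition has 1 array. The stimulus term of the additive fit matches the times within a stimulus, and a fit of time alone called 19 genes as well. Signal near background limits the 24 h readings, when 11 genes above background in naive cells were above it on no array.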

Other observations

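Some genes outside the list with the largest least falls from naive cells over the antibody arrays are not macrophage genes. They were picked by the size of that fall and not by their course between the times. Dgat1, the enzyme of the last step of triglyceride synthesis, read 9.81 with LatA and 9.79 in naive cells, and was lower by a mean log2 difference of -1.64 at 3 h and of -3.57 at 24 h. Tcp11l2 (-2.29 at 3 h and -2.04 at 24 h), the DNA glycosylase gene Neil1 (-2.03 and -2.16) and Eif2ak3, which encodes the stress kinase PERK (-1.85 and -1.94), were about as low at both times. Arrdc3, an arrestin family gene, stood at -1.88 and -2.47, and Fosb, a subunit of AP-1, at -1.77 and -2.62. Ccr3, a chemokine receptor of eosinophils counted here among the macrophage genes, read 6.71 with LatA and 6.89 in naive cells, and stood at -1.60 at 3 h and -3.55 at 24 h. A fall on all antibody arrays was therefore not particular to genes of macrophages in these data.

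Single genes of the other cell types moved in both directions, given here as the mean log2 difference of the 6 antibody arrays from the naive array. In the MHC class II pathway, H2-DMa, a chain of the peptide-loading catalyst, stood at 1.67, and H2-Aa, the alpha chain of I-A, at -0.92. Among genes that NK cells share with T cells, the transcription factor gene Eomes stood at 2.36 and the lectin receptor gene Klrd1 at -1.64. The monocyte genes Treml4 and Cd300e stood at -1.38 and -1.01, while Ly6c1 (below background in naive cells at 3.64) and Ms4a4c were 1.5-fold higher on all 6 antibody arrays. Cd8a, listed both for dendritic cells and for T cells, stood at 1.09, and Ccr7, the homing receptor of naive T cells and mature dendritic cells, at -1.08. Genes of the remaining lists stood nearer 0, at 0.46 for Pou2af1 and -0.33 for Blk (B cells), -0.48 for Csf3r and 0.08 for Il1b (neutrophils), -0.44 for Kit (mast cells), -0.85 for Ppbp and -0.38 for Itga2b (platelets), -0.33 for Col3a1 and -0.27 for Pecam1 (stroma and endothelium), and 0.65 for Thy1 (T cells).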
